A study of Mus musculus with 15 samples.

Results

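The genes described here are 6 natural killer (NK) and cytotoxic genes, Ncr1, Nkg7, Ccl5, Gzma, Eomes and Ctsw, out of 12798 genes in the expression table of sorted mouse bone-marrow progenitors. They were picked by name, and all 6 were present and passed the filter on low values. Ncr1 encodes the activating NK receptor NKp46, Nkg7 a membrane protein of cytotoxic granules, Gzma the granule protease granzyme A and Ctsw the papain-family protease cathepsin W. Ccl5 encodes a secreted chemokine that attracts T cells and other leukocytes, and Eomes a T-box transcription factor.

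NK cells kill target cells by releasing granules that hold perforin and granzymes, and they read their targets through activating and inhibitory surface receptors. They belong with the innate lymphoid cells (ILCs), which arise in the bone marrow from common lymphoid precursors without rearranged antigen receptors. Eomes and its relative Tbx21 (T-bet) drive NK cell maturation, while Tcf7, which encodes TCF-1, marks the earliest ILC-committed progenitors.

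The data are bulk RNA-seq of 15 libraries in 6 groups, all from mice on the C57BL/6 background. ALP_WT (n = 3) holds all-lymphoid progenitors of the genotype Tcf7EGFP/+, gated as Lin- Kit+ 2B4+ cells that lacked a4b7 and were Flt3high and IL-7Ra+. EILP_WT (n = 3) holds early innate lymphoid progenitors of the genotype Tcf7EGFPnull/+, gated among Lin- Kit+ 2B4+ cells as a4b7+, Tcf7+ and Thy1-, so these wild-type-labelled cells carried 1 null Tcf7 allele. EILP_KO (n = 2) came from that same gate in Tcf7EGFPnull/- mice. sEILP_WT (n = 2) and cEILP_WT (n = 3) came from mice with the reporters Tcf7GFP and Zbtb16GFP and divided the gate by Zbtb16 and Flt3: sEILP_WT was Zbtb16low and Flt3high, cEILP_WT was Zbtb16high and Flt3low. ILCP_WT (n = 2) holds ILC progenitors of the genotype Tcf7EGFP/+, which were Tcf7+, Thy1+ and IL-7Ra+. The allele combination differs between ALP_WT and each EILP group and between ILCP_WT and each EILP group, so strain and stage cannot be told apart there. The labels do not say that replicates came from separate animals, and the p-values measure the spread between these samples, which may be technical.

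Values are the deposited log2 expression values, on a scale where the linear values of a library sum to between 998697 and 999292. Each library has a lowest value of its own, between -4.83 and -4.41, which 747 to 2575 genes share. Such a gene is described as at the lowest value, and where every library of a group is there a fold is left out. No counts were analysed, so the depth is unknown. Tcf7, the targeted gene, was 6.97 and 7.65 in EILP_KO, below the 9.89, 10.81 and 11.14 of EILP_WT and above the 2.54, 2.64 and 1.91 of ALP_WT. EILP_WT replicate 3 had the 2575 genes at its lowest value, and the other EILP_WT libraries had 1877 and 1470.

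Promoters of 4 of the 6 members, Ncr1, Nkg7, Gzma and Eomes, were found in a RefSeq table on build GRCm38.p6 (mm10). 3 of them are shown because the RUNX and T-box factor genes Runx3, Eomes and Tbx21 are measured in the same libraries. Each run is the 250 bases before the gene's start, on the gene's strand from 5′ to 3′, with capitals on matches to ACCACA (a RUNX motif) and TCACAC (a T-box motif), in either orientation.
Ncr1 promoter, chr7:4337465-4337714, plus strand: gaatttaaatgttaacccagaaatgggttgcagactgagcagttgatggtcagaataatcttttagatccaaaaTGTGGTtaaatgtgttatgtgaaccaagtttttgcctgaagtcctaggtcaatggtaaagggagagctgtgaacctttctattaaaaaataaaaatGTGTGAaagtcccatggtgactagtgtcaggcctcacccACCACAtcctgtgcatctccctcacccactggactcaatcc
Nkg7 promoter, chr7:43436888-43437137, plus strand: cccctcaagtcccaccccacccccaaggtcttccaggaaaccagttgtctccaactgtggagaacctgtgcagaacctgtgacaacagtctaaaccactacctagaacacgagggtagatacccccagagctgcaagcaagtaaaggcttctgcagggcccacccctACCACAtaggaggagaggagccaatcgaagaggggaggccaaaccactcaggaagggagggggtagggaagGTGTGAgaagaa
Gzma promoter, chr13:113100982-113101231, minus strand: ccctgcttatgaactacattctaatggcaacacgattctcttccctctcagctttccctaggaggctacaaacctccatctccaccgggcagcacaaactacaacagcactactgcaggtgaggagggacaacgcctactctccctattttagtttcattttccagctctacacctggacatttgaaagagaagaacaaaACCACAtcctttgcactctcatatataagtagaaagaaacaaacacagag
The Ncr1 promoter held RUNX matches that began 176 and 41 bases before the start and a T-box match 80 bases before it. In the Nkg7 promoter a RUNX match lay 83 bases and a T-box match 12 bases before the start, and the Gzma promoter held 1 RUNX match 50 bases before it. The Eomes window held no match to either, and none of the 4 windows held CTTTGA or CTTTGT (TCF/LEF motifs). Among 32851 promoter windows of 250 bases, 14.05% held the RUNX letters, 12.29% the T-box letters and 27.62% a TCF/LEF match, so each is a common string. A match is a description of the letters and not a measured binding site.

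The 6 genes fell into 2 patterns across the libraries. Nkg7 and Ctsw were above the lowest value in 15 of 15 libraries and Ccl5 in 14, with lower values in ALP_WT than in every other library. Eomes was above it in 8 libraries, Ncr1 in 4 and Gzma in 4, and for these genes replicates of 1 group often lay at opposite ends of the scale. In bulk samples, more cells of a type and more RNA per cell cannot be told apart.

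**Figure D1:**
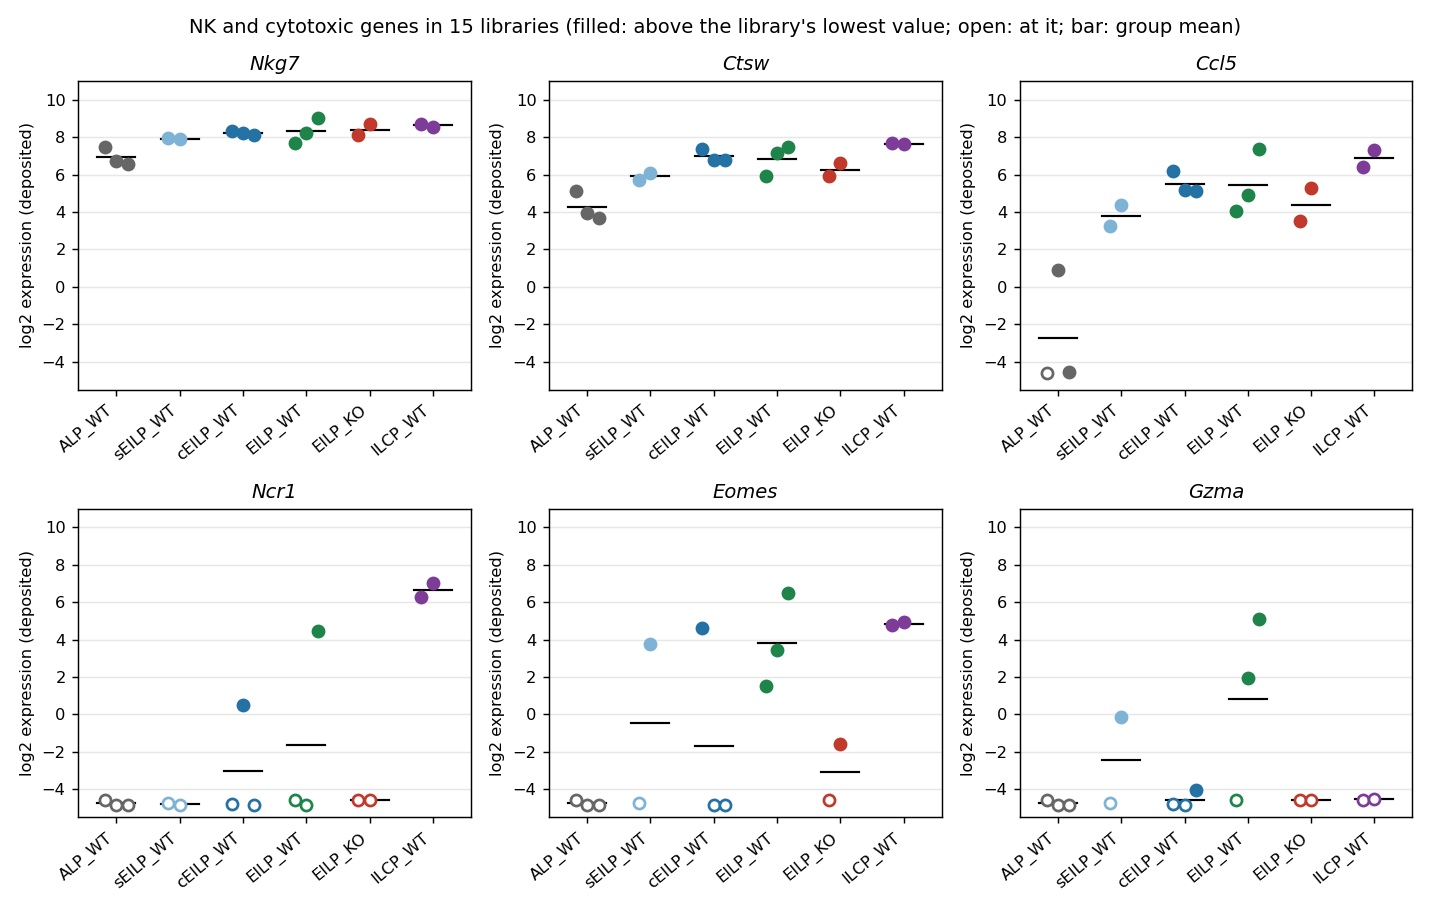
Deposited log2 expression (vertical axis, the same in all panels) of each of the 6 genes in the 15 libraries, by group. Each point is a library, open where it lies at its library's lowest value, and bars are group means. Nkg7, Ctsw and Ccl5 are lower in the 3 ALP_WT libraries than elsewhere, Ncr1 is high in both ILCP_WT libraries, and Eomes and Gzma are spread within groups.

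Nkg7, the granule membrane gene, lies on chromosome 7 at 43437138 to 43438246. ALP_WT had 7.50, 6.73 and 6.56, sEILP_WT 7.93 and 7.92, and cEILP_WT 8.35, 8.22 and 8.13. EILP_WT had 7.70, 8.24 and 9.05, and the gene was 8.11 and 8.70 in EILP_KO and 8.69 and 8.56 in ILCP_WT. The 3 ALP_WT libraries were the lowest of all 15, and EILP_WT replicate 3 was the highest. In order of mean level (± SD), ALP_WT (6.93 ± 0.50) was followed by sEILP_WT (7.92 ± 0.01), cEILP_WT (8.23 ± 0.11), EILP_WT (8.33 ± 0.68), EILP_KO (8.41 ± 0.42) and ILCP_WT (8.63 ± 0.09). From cEILP_WT upward, libraries of neighbouring groups in this order overlapped.

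Ctsw, the cathepsin W gene, lies on chromosome 19 at 5465043 to 5468628. ALP_WT had 5.13, 3.96 and 3.65, sEILP_WT 5.73 and 6.08, and cEILP_WT 7.34, 6.80 and 6.77. EILP_WT had 5.92, 7.15 and 7.47, and the gene was 5.91 and 6.61 in EILP_KO and 7.68 and 7.62 in ILCP_WT. ALP_WT was again below and ILCP_WT above every other library. In order of mean level the groups ran from ALP_WT (4.24 ± 0.78) through sEILP_WT (5.91 ± 0.25), EILP_KO (6.26 ± 0.49), EILP_WT (6.84 ± 0.82) and cEILP_WT (6.97 ± 0.32) to ILCP_WT (7.65 ± 0.04). Neighbours between sEILP_WT and cEILP_WT in this order overlapped.

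Ccl5, the chemokine gene, lies on chromosome 11 at 83525778 to 83530518. In ALP_WT, replicate 1 was at its lowest value, replicate 3 was at -4.55 and replicate 2 was at 0.87. sEILP_WT had 3.25 and 4.37, cEILP_WT 6.20, 5.15 and 5.14, and EILP_WT 4.03, 4.89 and 7.34. The gene was 3.49 and 5.30 in EILP_KO and 6.39 and 7.33 in ILCP_WT. Every library outside ALP_WT exceeded every ALP_WT library by more than 2 log2 units. By mean the order was ALP_WT, sEILP_WT (3.81 ± 0.79), EILP_KO (4.39 ± 1.28), EILP_WT (5.42 ± 1.72), cEILP_WT (5.50 ± 0.61) and ILCP_WT (6.86 ± 0.66), and neighbours from sEILP_WT to cEILP_WT in this order overlapped, while cEILP_WT and ILCP_WT did not.

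Against ALP_WT, which asks what differs between lymphoid progenitors and the ILC progenitors, Nkg7, Ctsw and Ccl5 rose in EILP_WT. That is 3 of 6 members called higher and 0 lower at an adjusted p under 0.05 by limma, where 3.21% of 12572 genes were called in either direction and 1.71% higher. Nkg7 was higher by 1.43 log2 units (SE 0.33, adjusted p = 0.0363 by limma), or 2.70-fold. Ctsw was higher by 2.58 (SE 0.46, adjusted p = 0.0109 by limma), or 6.00-fold. Ccl5 was higher by 8.71 (SE 1.25, adjusted p = 0.00264 by limma), a size that depends on the low end of the scale: with values below 0 set to 0 it was 5.49. With Eomes, given further on, 4 of 6 members had every EILP_WT library above every ALP_WT library, as did 9.09% of genes.

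These calls lean on some libraries. Without EILP_WT replicate 3, 1 member, Ccl5, was called, and the Nkg7 difference was 0.92 (adjusted p = 0.203 by limma) and the Ctsw difference 2.07 (adjusted p = 0.0864 by limma). The Nkg7 call was also lost without EILP_WT replicate 2, ALP_WT replicate 2 or ALP_WT replicate 3 (adjusted p = 0.0757, 0.12 and 0.107 by limma). ALP_WT replicate 1, the only ALP_WT library of batch 1, had the highest ALP_WT values of Nkg7 and Ctsw. Within batch 1 the Nkg7 difference was 0.47 and within batch 2 it was 2.40. The Ctsw difference was 1.41 and 3.66 within those batches, and the Ccl5 difference 9.06 and 9.19. Ccl5 was at the lowest value in ALP_WT replicate 1, so the size of 9.06 depends on that floor. The same holds for the batch 1 Ccl5 differences of the other groups from ALP_WT, given below. The Nkg7, Ctsw and Ccl5 differences were positive in both batches, while batch 2 alone holds 1 EILP_WT library.

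In cEILP_WT the same genes, Nkg7, Ctsw and Ccl5, were called higher than in ALP_WT, 3 of 6 members where 1.97% of genes were called higher and 4% in either direction. Nkg7 differed by 1.34 (SE 0.33, adjusted p = 0.0427 by limma), Ctsw by 2.71 (SE 0.46, adjusted p = 0.00652 by limma) and Ccl5 by 8.79 (SE 1.25, adjusted p = 0.00239 by limma), or 5.57 with values below 0 set to 0. Their libraries did not overlap with ALP_WT, as was so for 12% of genes. The Nkg7 call was lost without any 1 of 5 libraries, ALP_WT replicates 2 and 3 and the 3 of cEILP_WT, with adjusted p from 0.0997 to 0.14 by limma. Within batch 1 and batch 2 the Nkg7 difference was 0.79 and 1.49, the Ctsw difference 1.95 and 2.96 and the Ccl5 difference 10.27 and 6.98.

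In sEILP_WT, Ccl5 alone passed: 1 of 6 members was called higher, where 0.493% of genes were, and 0.803% in either direction. It differed from ALP_WT by 7.63 (SE 1.47, adjusted p = 0.0354 by limma), and by 4.23 with values below 0 set to 0. The call was lost without ALP_WT replicate 1 (adjusted p = 0.201 by limma) and without either sEILP_WT library (adjusted p = 0.16 and 0.27 by limma). Nkg7 was 1.06 apart (95% interval 0.22 to 1.90, adjusted p = 0.388 by limma) and Ctsw 1.63 (95% interval 0.44 to 2.82, adjusted p = 0.336 by limma). For both genes the sEILP_WT and ALP_WT libraries did not overlap, as was so for 3 of 6 members and 14.7% of genes. Both sEILP_WT libraries belong to batch 1, where ALP_WT has 1 library. Within it the differences were smaller for Nkg7 (0.43) and Ctsw (0.78). For Ccl5 the difference was 8.40, measured from an ALP_WT library at its lowest value.

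ILCP_WT had the most member calls against ALP_WT, 4 of 6 higher, where 5.56% of genes were called higher and 13.4% in either direction. Nkg7 rose by 1.72 (SE 0.36, adjusted p = 0.00877 by limma), or 3.28-fold, and Ctsw by 3.40 (SE 0.51, adjusted p = 0.00116 by limma), or 10.6-fold. Ccl5 rose by 9.89 (SE 1.37, adjusted p = 7e-04 by limma), or by 6.75 with values below 0 set to 0. Ncr1 also rose (adjusted p = 0.0102 by limma), with no fold since ALP_WT lay at the lowest value throughout. For these 4 genes and Eomes, 5 of 6 members, ILCP_WT and ALP_WT did not overlap, as for 20.1% of genes. Without ILCP_WT replicate 1 only Ccl5 and Ctsw were called, and without ILCP_WT replicate 2 the Ncr1 call was lost (adjusted p = 0.0531 by limma). Within batch 1 and batch 2 the Nkg7 difference was 1.19 and 1.92, the Ctsw difference 2.56 and 3.82 and the Ccl5 difference 10.99 and 9.18.

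In EILP_KO, Ccl5 was called higher than in ALP_WT, 1 of 6 members where 0.605% of genes were called higher and 1.33% in either direction. Its difference was 7.42 (SE 1.37, adjusted p = 0.021 by limma), or 4.28 with values below 0 set to 0. The Ccl5 call was lost without either EILP_KO library and without ALP_WT replicate 1 (adjusted p from 0.085 to 0.155 by limma). Nkg7 was 1.49 apart (95% interval 0.71 to 2.27, adjusted p = 0.0679 by limma) and Ctsw 2.01 (95% interval 0.91 to 3.11, adjusted p = 0.0825 by limma). Within batch 1 and batch 2 the Nkg7 difference was 0.61 and 2.06, the Ctsw difference 0.79 and 2.81 and the Ccl5 difference 8.09 and 7.14, none of them called (Ccl5 adjusted p = 0.0526 and 0.493 by limma). For Nkg7, Ctsw and Ccl5 both EILP_KO libraries were above ALP_WT, 3 of 6 members where 15.2% of genes were. Without ALP_WT replicate 1, Nkg7 and Ctsw were called instead of Ccl5. The 5 comparisons above share the ALP_WT libraries, so they are not independent of each other.

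**Figure D2:**
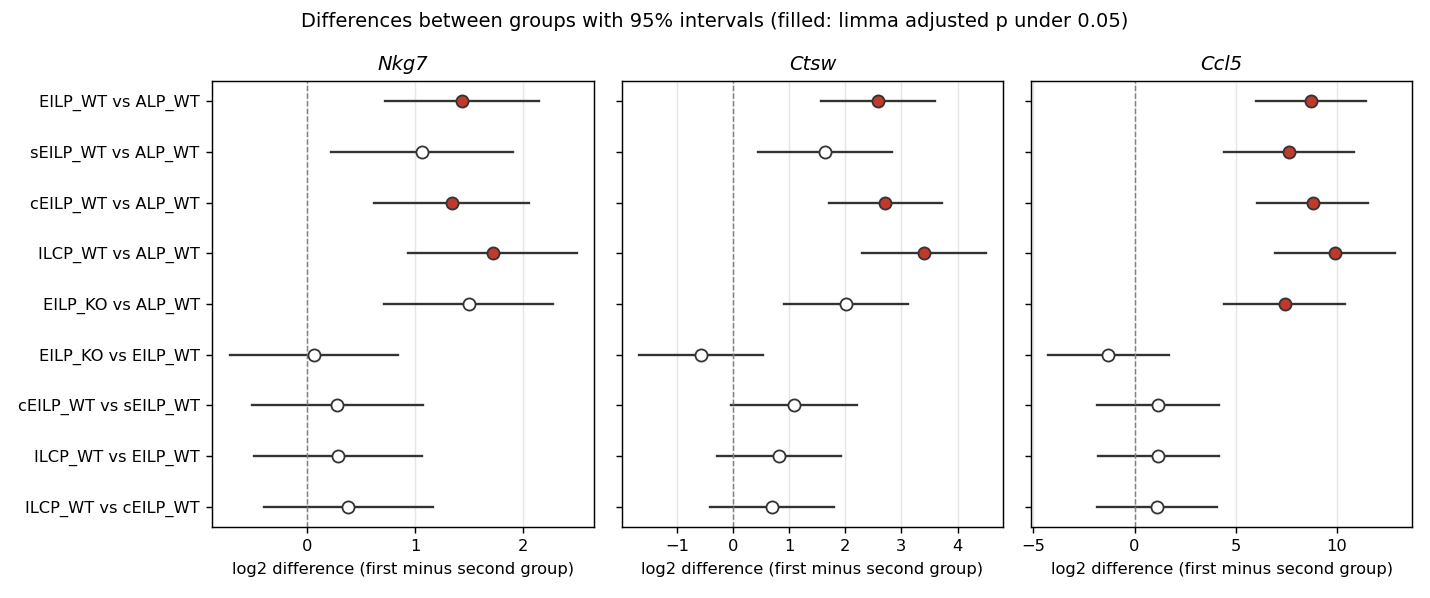
Log2 differences (horizontal axis, first minus second group, a separate scale for each gene) of Nkg7, Ctsw and Ccl5 in the 9 comparisons, with 95% intervals from limma. Filled points have an adjusted p under 0.05. All 5 comparisons with ALP_WT lie right of 0, and the intervals of the 4 comparisons among the other groups span 0.

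Eomes, the T-box factor gene, lies on chromosome 9 at 118478186 to 118486132. It was 1.52, 3.45 and 6.48 in EILP_WT and 4.78 and 4.92 in ILCP_WT. It was at the lowest value in all 3 ALP_WT libraries, in sEILP_WT replicate 1 and in cEILP_WT replicates 2 and 3, while sEILP_WT replicate 2 had 3.79 and cEILP_WT replicate 1 had 4.61. In EILP_KO, replicate 1 was at the lowest value and replicate 2 was at -1.57. Replicates of sEILP_WT and of cEILP_WT thus differed from each other by over 8 log2 units. The EILP_WT and ILCP_WT libraries were above all of ALP_WT, but neither difference passed (adjusted p = 0.136 and 0.0605 by limma).

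Ncr1, the NK receptor gene, lies on chromosome 7 at 4337715 to 4345184. It was 6.29 and 7.03 in ILCP_WT, 4.44 in EILP_WT replicate 3 and 0.48 in cEILP_WT replicate 2. In the other 11 libraries it was at the lowest value, among them all of ALP_WT, sEILP_WT and EILP_KO. Both ILCP_WT libraries were above every other library.

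Gzma, the granzyme A gene, lies on chromosome 13 at 113093824 to 113100981. It was 5.12 in EILP_WT replicate 3, 1.95 in EILP_WT replicate 2, -0.14 in sEILP_WT replicate 2 and -4.06 in cEILP_WT replicate 3. The other 11 libraries listed it at the lowest value, including both of ILCP_WT, where Ncr1 was highest. Gzma was called in 0 of the 9 comparisons by limma and had an unadjusted p under 0.05 in 3. The gene passed the filter on low values through EILP_WT alone, with 2 libraries at or above 0, and those 3 comparisons all involve EILP_WT, so they say little about Gzma beyond the values above. Its smallest adjusted p was 0.149, in EILP_WT against ALP_WT, where the unadjusted p was 0.0116.

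EILP_KO against EILP_WT asks which genes depend on Tcf7 in the same gate. By limma 0 of 6 members were called, where 0.103% of genes were. An unadjusted p under 0.05 was found for 2 members and for 1094 of 12572 genes. Nkg7 differed by 0.06 (95% interval -0.72 to 0.84), Ctsw by -0.57 (95% interval -1.68 to 0.53) and Ccl5 by -1.30 (95% interval -4.27 to 1.68), and the libraries of the groups overlapped for all 3. The 2 with an unadjusted p under 0.05 were Eomes (limma unadjusted p = 0.0447, adjusted p = 0.563) and Gzma (limma unadjusted p = 0.0261, adjusted p = 0.544). Gzma passed the filter on low values through EILP_WT alone, so its p says little beyond the values. Eomes was lower in both EILP_KO libraries than in all 3 EILP_WT libraries, by 6.95 in the fit (95% interval of the difference -13.71 to -0.19), a size that depends on the low end of the scale: with values below 0 set to 0 the difference was -3.88. Non-overlap in that direction was seen for 1 of 6 members and for 8.7% of all genes. Both EILP_KO libraries listed Gzma and Ncr1 at the lowest value, as did EILP_WT replicate 1, and Ncr1 was there in replicate 2 too.

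Between cEILP_WT and sEILP_WT, which split the gate by Zbtb16 and Flt3, 0 of 6 members were called by limma, as were 0% of 12572 genes. An unadjusted p under 0.05 was found for 0 members and 647 genes. Every cEILP_WT library was above both sEILP_WT libraries for Nkg7, Ctsw and Ccl5, a non-overlap seen for 3 of 6 members and 11.5% of genes. Ctsw was 1.08 higher (95% interval -0.04 to 2.20), Ccl5 1.16 (95% interval -1.86 to 4.19) and Nkg7 0.28 (95% interval -0.52 to 1.07), each with an adjusted p of 1 by limma. The intervals allow a Ctsw difference from about none to over 2 log2 units.

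In ILCP_WT against EILP_WT, 0 of 6 members were called by limma, where 6.95% of genes were. An unadjusted p under 0.05 was found for 2 members and for 2807 of 12572 genes. Ncr1 was 8.07 higher (SE 2.51, adjusted p = 0.0761 by limma), with EILP_WT replicates 1 and 2 at the lowest value. It was called without EILP_WT replicate 3, the only EILP_WT library above that value. Such a fit sets ILCP_WT against lowest values alone, so it adds nothing to the values given above. Gzma, at the lowest value in both ILCP_WT libraries and in EILP_WT replicate 1, had an unadjusted p of 0.0272 and an adjusted p of 0.159 by limma. Here too the gene had passed the filter through EILP_WT alone, so this p says little beyond the values. Ctsw was 0.82 higher (95% interval -0.29 to 1.92), Nkg7 0.28 (95% interval -0.50 to 1.06), Ccl5 1.18 (95% interval -1.80 to 4.15) and Eomes 0.98 (95% interval -5.78 to 7.74). Ncr1 and Ctsw did not overlap between the groups, 2 of 6 members where 14.8% of genes were higher without overlap.

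Against cEILP_WT, Ncr1 was the 1 of 6 members called higher in ILCP_WT, where 2.69% of genes were called higher and 7.41% in either direction. Its difference was 9.45 (SE 2.51, adjusted p = 0.0413 by limma), with cEILP_WT replicates 1 and 3 at the lowest value. The Ncr1 call was lost without any 1 of 4 libraries, both of ILCP_WT and cEILP_WT replicates 1 and 3, with adjusted p from 0.11 to 0.182 by limma. It held without cEILP_WT replicate 2, the only cEILP_WT library above the lowest value, which left lowest values alone on that side. Within batch 1 the Ncr1 difference was 8.43. For batch 2 it is left out, because the only cEILP_WT library there, replicate 3, was at the lowest value. Nkg7, Ctsw, Ccl5 and Eomes were also higher in both ILCP_WT libraries than in every cEILP_WT library, so that 5 of 6 members did not overlap, where 19.8% of genes were higher without overlap. None of these 4 passed: the differences were 0.38, 0.69, 1.10 and 6.48, with adjusted p from 0.247 to 0.701 by limma.

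EILP_WT replicate 3 was the only library with all 6 members above its lowest value, although more genes lay at the lowest value there than in any other library. It had the highest Nkg7, Ccl5, Gzma and Eomes values of the 15 libraries. Its Ncr1 value was below those of ILCP_WT alone. The other EILP_WT libraries had 4 and 5 members above the lowest value, ILCP_WT 5 and 5, cEILP_WT 4 in each, sEILP_WT 3 and 5, EILP_KO 3 and 4, and ALP_WT 2, 3 and 3.

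Of the 23 NK receptor and surface genes in the table, 16 were highest in replicate 3 among the EILP_WT libraries and 3 were lowest there. The 3 were Cd226, at the lowest value in replicate 3 and 0.28 and 2.80 in replicates 1 and 2, Il12rb1 (0.92 against 4.35 and 6.18) and Cx3cr1 (2.10 against 5.20 and 4.92). Klrb1c (NK1.1) was 6.62 in EILP_WT replicate 3 and at the lowest value in replicates 1 and 2, and was 5.05 and 5.96 in ILCP_WT. Klrk1 (NKG2D) was 2.89, 4.46 and 6.30 in EILP_WT and 5.95 and 5.94 in ILCP_WT. Klrd1 (CD94) was at the lowest value in EILP_WT replicate 1, 3.25 in replicate 2 and 5.08 in replicate 3. Replicate 3 was the highest EILP_WT library for Klrb1c, Klrk1 and Klrd1, none of which was called between EILP_WT and ALP_WT. Prf1, the perforin gene, was at the lowest value in 9 libraries, among them EILP_WT replicate 3 and both of ILCP_WT, and was 2.04, 3.36 and 0.71 in ALP_WT. Gzmb and Ifng were not analysed here.

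Tbx21, the other T-box factor gene of NK cells, was above the lowest value in 5 libraries: 3.03 in sEILP_WT replicate 2, 3.93 in cEILP_WT replicate 1, 5.62 in EILP_WT replicate 3 and 4.94 and 4.93 in ILCP_WT. These were the 5 libraries with the highest Eomes values. In EILP_WT replicates 1 and 2, where Eomes was 1.52 and 3.45, Tbx21 was at the lowest value. Tbx21 was not called in any of the 9 comparisons by limma.

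**Figure D3:**
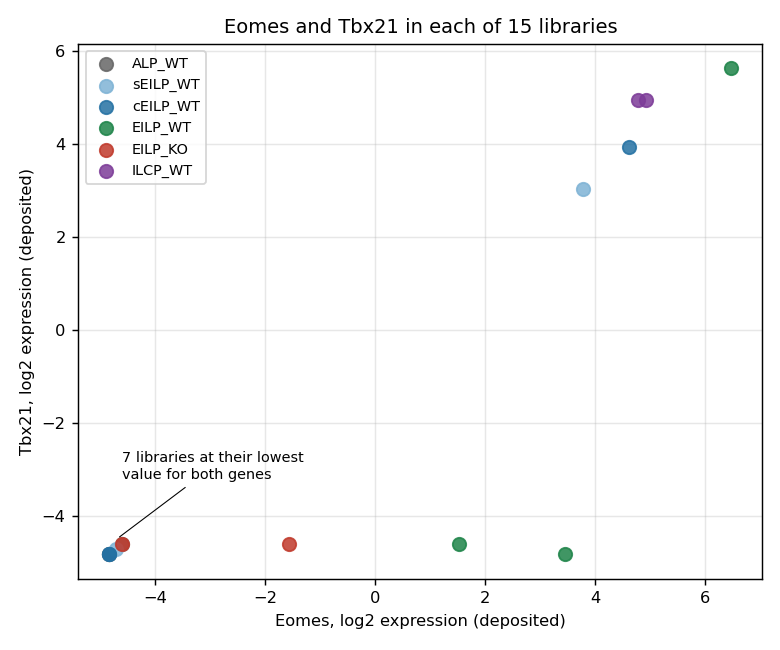
Tbx21 (vertical axis) against Eomes (horizontal axis), both as deposited log2 expression, with 1 point per library and colours for the 6 groups. The 5 libraries with Tbx21 above the lowest value are those with Eomes of at least 3.79, and 7 libraries are at the lowest value for both.

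Among the members, Nkg7 and Ctsw had the most similar patterns over the 15 libraries (Pearson r 0.943), and each was the other's closest gene among 11415 searched. The next most similar to Nkg7 were H2-D1 (r 0.912), a class I histocompatibility gene, and Lef1 (r 0.902), a relative of Tcf7. For Ctsw, Ssbp3 (r 0.942) came next. The genes most like Ccl5 were Rarg (r 0.959), a retinoic acid receptor gene, Id2 (r 0.941), the inhibitor of E proteins that ILCs require, and Tox (r 0.941), an ILC and NK transcription factor gene. Ccl5 correlated with Ctsw at 0.868 and with Nkg7 at 0.835. The genes most like Eomes were Ccr8 (r 0.860), a chemokine receptor gene, Tbx21 (r 0.844) and Sepp1 (r 0.840), a selenium carrier gene. Eomes was at the lowest value in 7 libraries, and Ccr8 and Tbx21 were above it in only 7 and 5. Values at the floor therefore weigh on the Ccr8 and Tbx21 correlations. These correlations describe 15 libraries that share groups and batches, and no p is given. Gzma and Ncr1 were above the lowest value in too few libraries for such a ranking.

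Wider lists of NK genes placed the members in context. Of 23 tested NK receptor and surface genes, 5 rose and 0 fell in EILP_WT against ALP_WT, where 1.71% of all genes were called higher, with a median difference of 3.12 log2 units where that of all genes was -0.01. That median includes genes at the lowest value in some libraries. Il2rb, the interleukin-2 and interleukin-15 receptor chain, rose by 8.17 (SE 1.40, adjusted p = 0.00841 by limma). That size depends on the low end of the scale: ALP_WT had 3.26 and 0.28 in replicates 1 and 3 and the lowest value in replicate 2. Cd160, Cd7 and Il12rb2 were also called. In cEILP_WT 3 of the 23 rose (1.97% of all genes were called higher), in sEILP_WT 1 (Il12rb2; 0.493% of all genes) and in EILP_KO 1 (Il2rb; 0.605% of all genes). In ILCP_WT 9 rose, where 5.56% of all genes did, and 1 fell (Cx3cr1). By limma 0 receptor genes were called in EILP_KO against EILP_WT and in cEILP_WT against sEILP_WT, with 2 in each at an unadjusted p under 0.05. Of all 12572 genes, 1094 and 647 were at such a p in these comparisons. Against EILP_WT 3 rose in ILCP_WT (Cd226, Il12rb1 and Il18r1) and 2 fell (Cx3cr1 and Cd244), where 6.95% of all genes were called in either direction. Cd244 encodes 2B4, a marker that EILP_WT was gated on and that is not named for ILCP_WT. Its fall therefore says little beyond the sort.

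Of 14 adaptor and signalling genes, 4 rose in EILP_WT against ALP_WT (1.71% of all genes were called higher), among them Fcer1g by 2.08 (SE 0.21, adjusted p = 0.000293 by limma) and Tyrobp by 1.74 (SE 0.24, adjusted p = 0.00191 by limma), which pair with NK and Fc receptors. In ILCP_WT against EILP_WT 0 of the 14 rose and 5 fell (6.95% of all genes were called in either direction), led by Sh2d1b1, with differences of -4.51 for Syk, -2.72 for Lat2 and -1.94 for Tyrobp. Of 15 tested granule and killing genes, 2 rose in EILP_WT against ALP_WT, where 1.71% of all genes were called higher: Ctsc (cathepsin C, which activates granzymes) by 0.95 and Rab27a (granule docking) by 1.00. In ILCP_WT against ALP_WT 1 rose (Ctsc) and 1 fell (Cst7, an inhibitor of cathepsins), and against EILP_WT 2 fell (Rab27a and Srgn). With 13.4% and 6.95% of all genes called in these comparisons, the 2 of 15 called against ALP_WT are at the background.

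Of 7 chemokine and cytokine genes, 0 were called by limma in EILP_WT, sEILP_WT, cEILP_WT or EILP_KO against ALP_WT (3, 2, 2 and 0 had an unadjusted p under 0.05), where the member Ccl5 was called in each. Of all 12572 genes, 2072, 1148, 1979 and 1557 had an unadjusted p under 0.05 in these comparisons. In ILCP_WT 3 rose against each of ALP_WT, EILP_WT and cEILP_WT (13.4%, 6.95% and 7.41% of all genes were called in either direction), with Ltb, the lymphotoxin beta gene, higher by 5.65, 4.87 and 5.13. Of 17 transcription factor genes, 7 rose and 0 fell in EILP_WT against ALP_WT, and 5 rose and 0 fell in EILP_KO, where 1.71% and 0.605% of all genes were called higher. By limma 0 were called in EILP_KO against EILP_WT, with 4 at an unadjusted p under 0.05, as were 1094 of all 12572 genes. Zbtb16, Gata3, Id2 and Tox led in EILP_WT. Zbtb16 is also a reporter in the sort of sEILP_WT and cEILP_WT, but not in the EILP_WT gate.

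**Figure D4:**
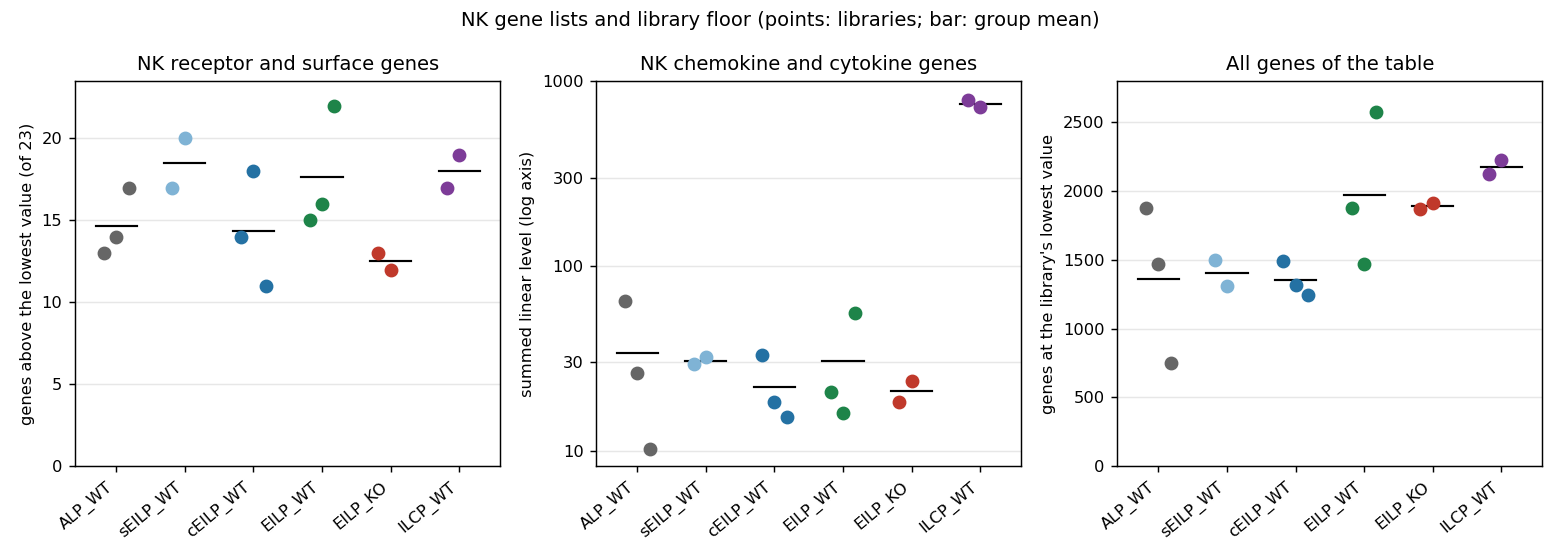
Per library and group, the number of 23 NK receptor and surface genes above the lowest value (left), the summed linear level of 7 NK chemokine and cytokine genes (middle, log axis) and the number of all genes at the lowest value (right); points are libraries and bars group means. EILP_WT replicate 3 has 22 receptor genes above the lowest value and also the most genes at it, and ILCP_WT stands at 721 to 789 in the middle panel.

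Markers of other cells were read beside these results. Of 11 T cell markers, 9 to 10 were above the lowest value in ILCP_WT with a summed linear level of 434 to 616, where the other groups ranged from 68.9 to 210. Cd3e was 4.16 and 3.67 and Cd3g 4.39 and 5.29 in ILCP_WT, and they were 4.0 and 5.16 in EILP_WT replicate 3, the library with the highest member values. Cd3d was at the lowest value in that library and 1.77 and 1.86 in ILCP_WT, and Cd4 and Cd8b1 were also at the lowest value in EILP_WT replicate 3. In ILCP_WT, Cd8b1 was 1.96 and 2.35, and Cd4 was 4.02 in replicate 1 and at the lowest value in replicate 2. Of the 11 markers 5 rose and 1 fell in ILCP_WT against ALP_WT, where 5.56% of all genes were called higher. Cd3e, Cd3g, Cd8b1, Bcl11b and Trat1 rose, of which ILCs are also known to use Bcl11b. Bcl11b had the largest value of the 11 in both ILCP_WT libraries (7.42 and 8.35). Cd5 fell, from 4.02, 3.90 and 2.94 in ALP_WT to the lowest value in both ILCP_WT libraries (adjusted p = 0.0164 by limma). In EILP_WT and in cEILP_WT 2 rose, Bcl11b and Trat1. Of 8 helper ILC markers, 6 rose and 0 fell in ILCP_WT against ALP_WT. Their summed linear level was 2228 to 2819 in ILCP_WT, where the other groups ranged from 147 to 547. The summed linear level of 6 mast cell and basophil markers was 15.3 to 51.7 in ALP_WT, 375 to 2014 in the EILP groups and 90.1 and 767 in ILCP_WT, and 1 of the 6, Cpa3, rose in all 5 comparisons with ALP_WT. Within EILP_KO, 9 erythroid and megakaryocyte markers summed to 331 in replicate 1 and 2833 in replicate 2, where the other groups ranged from 143 to 626. The sum of 11 neutrophil and monocyte markers was 4266 and 5456 in EILP_KO, 3976, 1252 and 492 in EILP_WT, 1222 to 2182 in ALP_WT, 3216 to 3423 in sEILP_WT, 1219 to 2547 in cEILP_WT and 163 to 904 in ILCP_WT. Mpo was the largest of these markers in EILP_KO (11.70 and 11.87), and Elane and Prtn3 were highest in that group. S100a8, S100a9, Camp and Ngp were instead highest in cEILP_WT replicate 3 (S100a8 7.77, Ngp 7.13). Those genes were at the lowest value in EILP_KO replicate 1. The part of such cells, or of mature NK cells that carry the same genes, in the member values was not tested. Of the sort markers, Il7r was 7.91, 8.95 and 7.89 in ALP_WT, at the lowest value in EILP_WT replicate 1, 6.34 and 7.58 in replicates 2 and 3, and -1.30 and -0.99 in EILP_KO, and Thy1 was 4.99 and 4.85 in ILCP_WT, above the other groups.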

How the data were processed

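RNA of the sorted cells was isolated with an RNeasy Plus Micro kit and libraries were made with SMARTer Ultra Low Input and Nextera XT kits, per the labels. Reads went through bcl2fastq 2.17, were aligned to mm10 and quantified with tools listed as STAR 2.5.2b and RSEM 1.2.23, and limma is listed as well, per the submitters' processing notes; the annotation is not given in the sources used here. The deposited values are on a log2 scale. The values themselves show nearly equal linear sums per library and medians and maxima nearly equal, as after quantile normalization, but lowest values that differ; the step itself is not stated. Whether they are per transcript length is not stated, and levels are compared only within a gene. Another 24 columns without a name or values were not used.

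The test covered the 12572 of 12798 genes whose log2 value reached 0 in 2 or more libraries. A limma model (version 3.58.1, R 4.3.3) with group and batch (9 and 6 libraries, from the labels) and an intensity trend was fitted to all 15 libraries for 9 comparisons. P-values were adjusted by Benjamini-Hochberg over all genes of each comparison, and a gene counts as called, or as having risen or fallen, under 0.05. Groups do not overlap where all libraries of one exceed all of the other, with values at or below the highest library floor counted as ties. The fit was also run on simulated data with normal spread, without a shared lowest value and without a batch effect. Changes were put only into genes above the median mean level. Ccl5, Eomes, Ncr1 and Gzma lay below that level, so the simulation does not test calls of these genes. Promoters, gene positions and motif shares came from RefSeq tables.

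The members, lists and comparisons were chosen with earlier results of these data known. The rule names the 6 members, up to 4 called genes with the largest difference per NK list and comparison, the values of set NK genes, and the 3 genes most correlated with each member above the lowest value in at least 5 libraries; 1 of these is not reported here. Tcf7, the 3 receptor genes lowest in EILP_WT replicate 3 and the T cell, mast cell, neutrophil and sort marker genes printed were chosen after their values were seen. Alternatives were other normalizations, filters, variance models, batches, pairings and libraries left out.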

Additional observations from a re-analysis of the deposited data

How the results depend on the processing

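The number of the 6 genes called changed with the setting in 7 of 9 comparisons, and was 0 under every setting run for EILP_KO against EILP_WT and for cEILP_WT against sEILP_WT. Against ALP_WT, the 3 calls of EILP_WT became 0 with these groups alone in the fit, 1 in batch 1 alone and 0 in batch 2 alone, and 1 to 4 with 1 library left out. The 1 call of sEILP_WT became 0 without the batch term, with these groups alone, without the intensity trend and with the replicate block, and 0 to 1 with 1 library left out. The 3 calls of cEILP_WT became 1 in batch 1 alone and 0 in batch 2 alone, and the 4 of ILCP_WT became 1 and 0 there, and 2 to 4 with 1 library left out. The 1 call of EILP_KO became 0 with these groups alone, in batch 1 alone, in batch 2 alone and with the replicate block, 3 with library quality weights, and 0 to 2 with 1 library left out. ILCP_WT against EILP_WT went from 0 to 1 (Ncr1) with values below 0 set to 0, and 0 to 1 with 1 library left out. The 1 call of ILCP_WT against cEILP_WT became 0 with these groups alone, with cyclic loess, without the trend, with quality weights and in either batch alone, and 0 to 1 with 1 library left out. The cause of these changes was not tested. The batch, group-alone and left-out fits also hold fewer libraries.

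Signs of small uncalled differences turned. For EILP_KO against EILP_WT, Nkg7 was -0.069 with these groups alone, -0.34 in batch 2 alone and -0.24 to 0.53 with 1 library left out. For ILCP_WT against EILP_WT in batch 2 alone, Nkg7 was -0.48, Ccl5 -0.011 and Eomes -1.56, and with 1 library left out Nkg7 ranged from -0.017 to 0.75 and Eomes from -0.11 to 2.73.

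Same-numbered libraries of different groups did not deviate together: of 20 pairs, 0 had a correlation over 0.1 (range -0.05 to 0.05), and 7 correlated best with their own number. With the replicate block in place of the batch, 2 members were called for EILP_WT and for cEILP_WT against ALP_WT, 4 for ILCP_WT against ALP_WT and 1 for ILCP_WT against cEILP_WT.

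Counts over all genes moved too. The 404 genes called for EILP_WT against ALP_WT ranged from 224 to 468 over fits of all libraries, were 60 with these groups alone, and ranged from 0 to 223 within batches. In the same order of fits of all libraries and groups alone, the 101 of sEILP_WT were 60 to 125 and 0, the 503 of cEILP_WT 330 to 702 and 318, the 1687 of ILCP_WT 1124 to 1861 and 403, and the 167 of EILP_KO 130 to 219 and 0. The 13 of EILP_KO against EILP_WT were 2 to 19 and 0, the 0 of cEILP_WT against sEILP_WT 0 to 9 and 0, the 874 of ILCP_WT against EILP_WT 354 to 1046 and 0, and the 932 of ILCP_WT against cEILP_WT 515 to 1140 and 0. Batch 2 alone has 1 library per group except ALP_WT, and lone samples were assumed to vary like the others; it holds no sEILP_WT. Depth is unknown, so the counting error of values near the lowest value cannot be estimated.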
